A study of Mus musculus with 8 samples.

Results

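Nt5e, Klf4, Ada and Tbx3 were followed across all 8 deposited plates of single cells sorted for a hormone reporter, by reporter line and BMP4 condition. They are 4 genes of the 16115 that were listed in both kinds of deposited file. Nt5e, Klf4 and Ada were grouped as genes of the villus tip, and Tbx3 was added for its response to BMP4. The genes were chosen by their measured levels with BMP4 against none on these plates, so their changes at 24 h and at 4 days against no BMP4 are given here as a description, with no test.

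The cells came from intestinal organoids of C57BL/6 mice, grown with BMP4 for 4 days, with BMP4 for 24 h, or without it, and each sorted cell was positive for a hormone reporter. The lines carry Gcg-Venus (2 plates), Gip-Cre (1 plate) or Tac1-Cre (5 plates). On both Gcg plates, on the Gip plate and on Tac1 plates 1 and 2, columns 1 to 6 hold untreated cells, columns 7 to 12 cells with 24 h of BMP4 and columns 13 to 24 cells with 4 days, whereas the other 3 Tac1 plates hold 1 condition each: 1 plate is labelled 24 h and 2 are labelled 4 days. A Venus driven by Gcg and a Cre reporter differ in kind: a Cre reporter keeps a cell labelled after the hormone gene is switched off. Whether plates came from separate cultures is not labelled, and each p-value therefore reflects plate-to-plate spread that may be technical.

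The intestinal villus is a conveyor on which cells born in the crypt move towards the tip, and BMP signals are stronger towards the tip than in the crypt. Nt5e encodes CD73, a surface enzyme that makes adenosine from AMP, and Ada encodes adenosine deaminase, which converts adenosine to inosine; both have been described in enterocytes of the villus tip in the mouse. Klf4 encodes a zinc-finger factor of differentiated epithelium that goblet cells of the mouse colon need to mature. Tbx3 encodes a T-box transcription factor that mostly represses its targets and lies downstream of BMP signalling in several developing tissues. Enteroendocrine cells also migrate up the villus, and which hormones they make differs between crypt and villus.

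In the mm10 genome Nt5e lies at chr9:88327609-88372089, Klf4 at chr4:55527137-55532475, Ada at chr2:163726571-163750239 and Tbx3 at chr5:119670534-119684724. The 250 bases before the annotated start (RefSeq, GRCm38.p6) are shown for Klf4 and Ada, so that the letters searched below can be read in place. Capitals mark any match, on either strand, to GGCGCC (a GC-rich element of BMP Smads), CAGAC (the Smad box), CACCC (a box of Klf factors), GGTGTG (a T-box core) or CCGCCC (a GC box, added after the windows had been seen). The Klf4 window is chr4:55532476-55532725 and the Ada window chr2:163750240-163750489, both on the minus strand.
Klf4: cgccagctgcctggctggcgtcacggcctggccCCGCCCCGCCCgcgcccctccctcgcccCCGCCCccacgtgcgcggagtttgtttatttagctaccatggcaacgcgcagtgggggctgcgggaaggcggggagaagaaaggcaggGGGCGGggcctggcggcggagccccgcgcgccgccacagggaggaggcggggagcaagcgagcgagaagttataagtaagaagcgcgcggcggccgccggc
Ada: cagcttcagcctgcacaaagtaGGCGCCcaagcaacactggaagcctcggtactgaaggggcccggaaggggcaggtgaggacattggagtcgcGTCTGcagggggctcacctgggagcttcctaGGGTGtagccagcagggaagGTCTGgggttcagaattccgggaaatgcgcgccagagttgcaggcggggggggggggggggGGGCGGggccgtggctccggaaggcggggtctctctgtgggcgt

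The Klf4 window held 4 GC boxes, at 217, 212, 189 and 101 bases before the start, of which the first pair shares 1 base, and none of the other 4 motifs. The Ada window held GGCGCC at 228 bases, CAGAC at 156 and 105, CACCC at 125 and a GC box at 44. In the Nt5e window, chr9:88327359-88327608 on the plus strand, there were 2 matches to CAGAC, 4 to CACCC and 4 to CCGCCC. Over all 32841 windows of this length, 9.59% held GGCGCC, 42.2% CAGAC, 52.02% CACCC, 16.3% GGTGTG and 32.7% CCGCCC. The Klf4 window was 74% G and C, the Nt5e window 72% and the Ada window 67.2%, against a median of 52.4%. A match describes letters only.

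Of 3072 wells, 1006 held at least 2000 transcripts and were kept. Cells were summed per plate and condition where at least 10 were kept, which gave 14 sums on the 5 plates with all conditions and 17 in all, of 98148 to 1251615 transcripts. Tac1 plate 2 kept 9 cells at 24 h and has no sum there. Levels are transcript counts scaled to a common library total (CPM), each with a 95% Poisson interval in the plot of levels, which covers counting error only. The sort was of reporter-positive cells, and the enteroendocrine genes Chga, Chgb and Neurod1 were above 0 on 8 of 8 plates. The goblet gene Muc2 was above 0 on 7 plates and the enterocyte gene Alpi on 6, so this does not show purity. Of 1006 kept cells, 436 failed limits of under 1% enterocyte, goblet, Paneth and tuft markers and at least 3 of 12 enteroendocrine markers. That share was 41.7% to 81.9% in the sums of the Gcg plates and 8.82% to 11.1% in those of Tac1 plate 1. Enterocyte markers summed to 11507 to 40943.8 CPM on the Gcg plates and to 854.829 to 2533.46 CPM on Tac1 plates 1 and 2, so markers of another cell type differ with the line. The Tac1 plate labelled 24 h stood apart: Id1, a direct BMP target, was found in 1 of its 48 cells and Id3, another, in none, where Id1 was found in 17 of 54 cells with 24 h of BMP4 on Tac1 plate 1. Results that rest on that plate name it as labelled.

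Nt5e was higher at 4 days of BMP4 than without it on 5 of 5 plates, by unequal amounts. On Gcg plate 1 it stood at 9.37 CPM without BMP4, 119 CPM at 24 h and 139 CPM at 4 days, and on Gcg plate 2 at 17.8, 106 and 221 CPM. The Gip plate gave 20.2 CPM without BMP4, 29.3 CPM at 24 h and 52.6 CPM at 4 days. The 4 day level was 1.17 times the 24 h level on Gcg plate 1 and 2.08 times on Gcg plate 2, and with BMP4 the Gip plate lay below both. Tac1 plate 1 had 45.5, 54.3 and 271 CPM in the same order, and Tac1 plate 2 had 104.6 CPM at 4 days against 19.2 CPM without BMP4. The 5 levels at 4 days did not overlap the 5 without BMP4, and the 4 levels at 24 h did overlap them. How many of all genes separate in this way was not counted, and Nt5e was chosen from this contrast.

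Ada was close to the limit of detection in every condition. It had 32 transcripts in 21 of the 1006 kept cells, it was listed on 6 of 8 plates, and it did not pass the filter on low counts in any comparison. Its highest level on the 5 plates was 12.0 CPM, on Gcg plate 1 at 4 days, where 15 of the 32 transcripts were found, and it was at 0 on Tac1 plate 2 in each sum. Of those 15 transcripts, 11 lay in the 14 cells with at least 5% enterocyte markers. On the Tac1 4 day plates it had 20.4 CPM, from 2 transcripts in 1 cell, and 0.

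Klf4 was higher at 4 days on 5 of 5 plates and showed no common direction at 24 h. Gcg plate 1 had 121 CPM without BMP4, 44.3 CPM at 24 h and 312 CPM at 4 days. Gcg plate 2 had 34.2, 113 and 256 CPM, so at 24 h the Gcg plates moved in opposite directions. The Gip plate had 22.03 CPM without BMP4, 5.16 CPM at 24 h and 49.2 CPM at 4 days, and Tac1 plate 1 had 52.1, 17.1 and 247 CPM. On Tac1 plate 2 Klf4 had 143 CPM at 4 days against 0 of 104278 transcripts without BMP4, at least 4.96-fold higher against a floor of 3 counts. The groups overlapped in the 4 day comparison too, since the untreated level of Gcg plate 1 lay above the 4 day level of the Gip plate.

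Tbx3 was higher with BMP4 on 4 of 4 plates with a 24 h sum and on 5 of 5 at 4 days. Without BMP4, at 24 h and at 4 days it had 38.7, 194 and 241 CPM on Gcg plate 1, 25.3, 201 and 296 CPM on Gcg plate 2, and 12.8, 96.4 and 208 CPM on the Gip plate. Tac1 plate 1 gave 21.7, 111 and 433 CPM. On Tac1 plate 2 it had 266 CPM at 4 days against 0 of 104278 transcripts without BMP4, at least 9.26-fold higher against a floor of 3 counts. Neither the 24 h levels nor the 4 day levels overlapped the untreated ones, and each plate with both times was higher at 4 days than at 24 h. For Tbx3 too the separation restates how the gene was chosen, and its share over all genes was not counted.

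**Figure D1:**
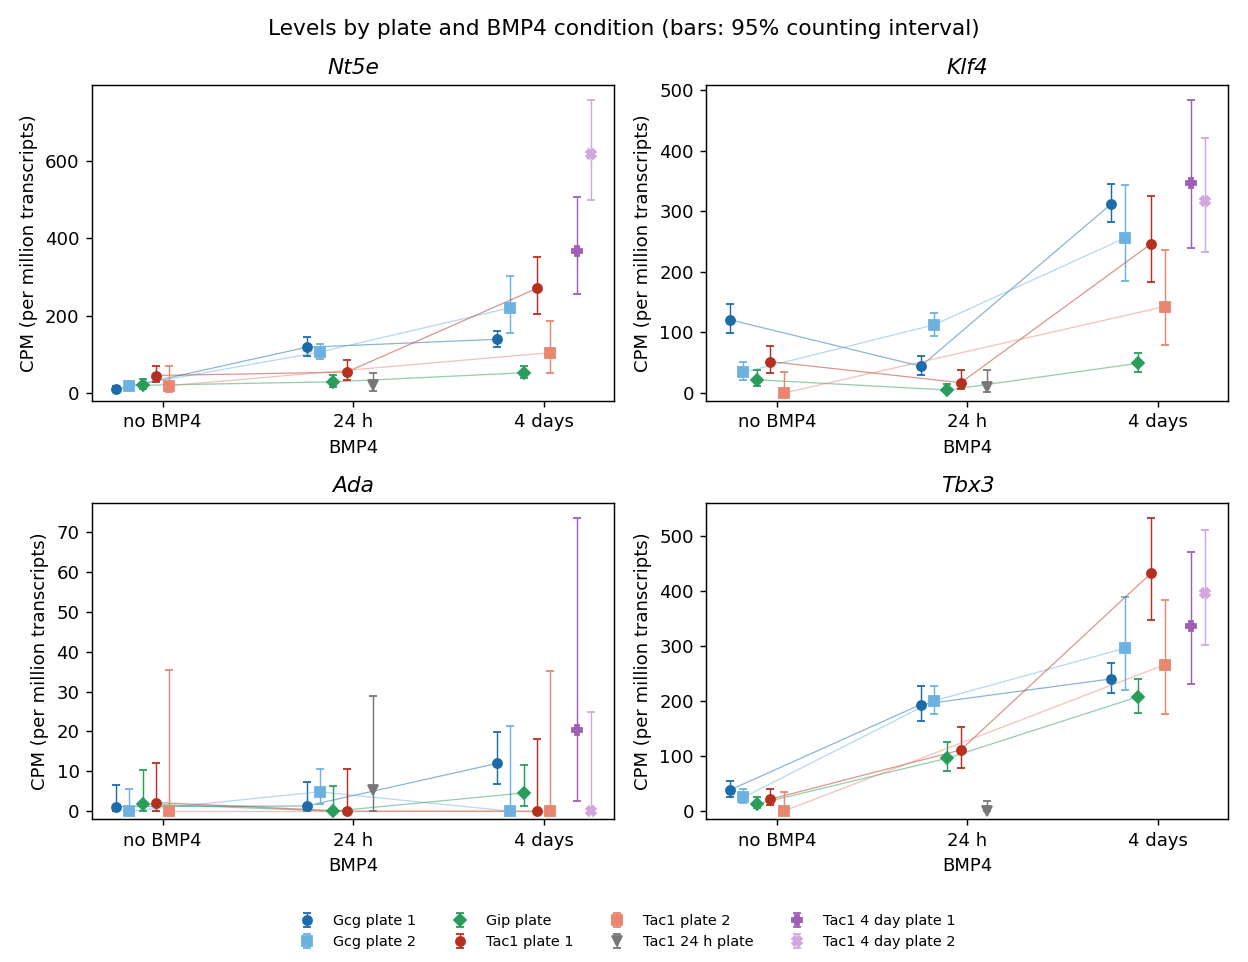
Levels of Nt5e, Klf4, Ada and Tbx3 in CPM (vertical axes, one scale per gene) without BMP4, at 24 h and at 4 days (horizontal axes). Each point is the sum of 1 plate's kept cells in 1 condition, bars are 95% Poisson intervals and lines join the conditions of 1 plate. Tbx3 separates 24 h and 4 days from no BMP4 on the plates with all conditions, Ada stays at or below 20.4 CPM, and the plate labelled 24 h lies at 0 for Tbx3.

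In edgeR's quasi-likelihood fit with plate as a block, Nt5e was higher by 1.87 ± 0.43 on the log2 scale at 24 h (SE, n = 4 plates with both conditions) and by 2.96 ± 0.41 at 4 days (SE, n = 5 plates). Klf4 was at -0.32 ± 0.53 at 24 h and at 2.16 ± 0.46 at 4 days, and Tbx3 at 2.69 ± 0.33 and 3.83 ± 0.33. At 24 h, 1 of the 3 members tested, Tbx3, passed an adjusted p of 0.05, where 0.0963% of the 8308 genes tested did so. At 4 days 3 of 3 passed, where 3.33% of all genes did. These counts only restate how the genes were chosen. Between 4 days and 24 h the change was 1.09 ± 0.37 for Nt5e, 2.48 ± 0.50 for Klf4 and 1.14 ± 0.30 for Tbx3. Most of the log2 change of Nt5e and Tbx3 was thus present at 24 h over the plates together, and that of Klf4 was not. For Nt5e this held on the Gcg plates only. Fitted by line, its 24 h and 4 day changes were 0.28 and 2.74 on the Tac1 plates and 0.57 and 1.499 on the Gip plate.

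Summed markers of other kinds were compared beside these changes. The summed level of 4 nuclear RNAs (Kcnq1ot1, Malat1, Neat1 and Meg3) ran from 31335.4 to 106542 CPM at 4 days and from 11346.6 to 29270.5 CPM without BMP4, although 1 of the 4 passed as higher and their median log2 change was -0.19. Goblet markers, 9 of 9 in the files, summed to 2101.85 to 24488 CPM at 4 days and to 1988.8 to 12743.8 CPM without BMP4, ranges that overlap; of 7 tested, 2 passed as higher and 1 as lower. Enteroendocrine markers, 14 of 14 in the files, summed lower at 4 days than without BMP4 on each plate with all conditions. They stood at 40074.6 against 84439.2 CPM on Tac1 plate 1 and at 6663.21 against 8271.85 CPM on Gcg plate 1. Of 13 tested, 2 passed as lower and 0 as higher. The share of wells kept was also lower at 4 days on these plates, the Gip plate excepted. It was 21.4% against 70.8% on Tac1 plate 1 and 12.5% against 78.1% on Gcg plate 2. The part of these sums and shares in the members' changes was not tested. Without the cells highest in nuclear RNA (over 4.26% of their transcripts), the 4 day changes were 3.21 for Nt5e, 2.13 for Klf4 and 3.81 for Tbx3. In cells with under 5% of transcripts from enterocyte, goblet, Paneth and tuft markers they were 3.05, 2.56 and 3.98. In those cells Klf4 was at 0.49 at 24 h, so its direction at 24 h turned with the choice of cells. Fewer kept cells of a type and less RNA per cell cannot be told apart in a sum.

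The fit was also made with a response for each line. Nt5e was higher at 24 h by 3.08 ± 0.38 on the Gcg plates, by 0.57 ± 0.59 on the Gip plate and by 0.28 ± 0.52 on the Tac1 plates (log2, SE of the fit). At 4 days the same lines stood at 3.85 ± 0.39, 1.499 ± 0.54 and 2.74 ± 0.43. The Tac1 value at 24 h comes from Tac1 plate 1 alone. Tbx3 was at 2.61 ± 0.41, 2.92 ± 0.69 and 2.62 ± 0.63 in that order at 24 h, and at 3.17 ± 0.42, 4.12 ± 0.68 and 4.85 ± 0.56 at 4 days. For Klf4 the values at 24 h were 0.13 ± 0.71, -2.01 ± 1.55 and -1.29 ± 1.26, and those at 4 days 2.03 ± 0.68, 1.28 ± 1.11 and 2.92 ± 0.89.

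**Figure D2:**
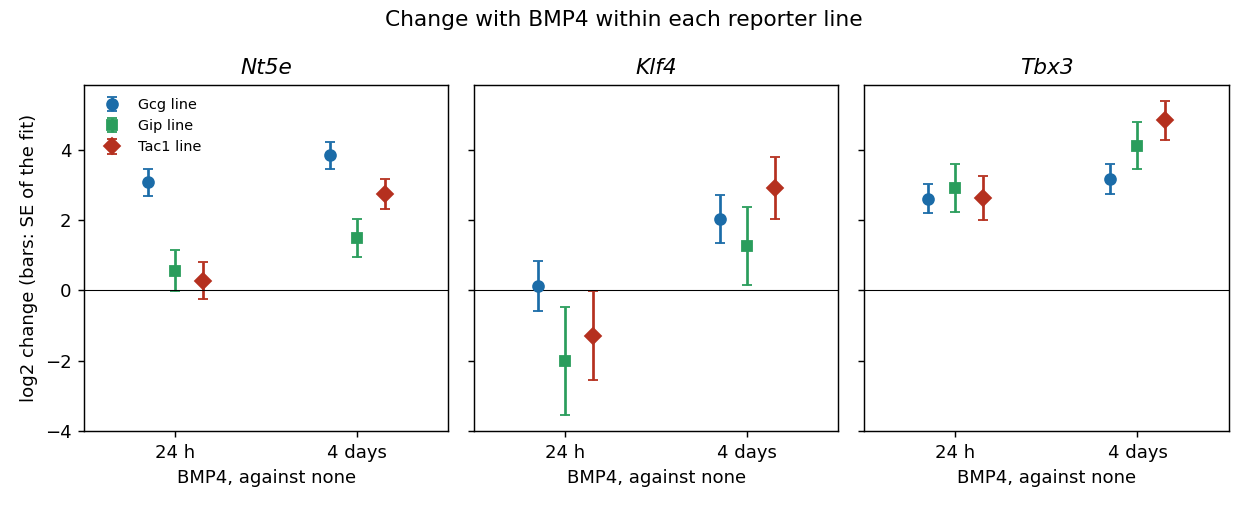
Log2 change of Nt5e, Klf4 and Tbx3 (vertical axis) at 24 h and 4 days of BMP4 against none (horizontal axis) in the Gcg, Gip and Tac1 lines; bars are standard errors of the fit. For Nt5e at 24 h the Gcg line is at 3.08 and the Gip and Tac1 lines are at 0.57 and 0.28, while for Tbx3 at 24 h the lines lie between 2.61 and 2.92.

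The difference of these responses between lines was tested over all genes. The members were chosen with earlier results of these data known, so their p-values may not be independent of that choice. At 4 days edgeR called 0 of 8308 genes (0%) for Gcg against Tac1 plates, with 754 at an unadjusted p under 0.05, while DESeq2 called 22. Of the members, Nt5e differed by 1.11 ± 0.59 (adjusted p = 0.62, 95% interval -0.21 to 2.42), Klf4 by -0.89 ± 1.12 (adjusted p = 0.88, -3.40 to 1.63) and Tbx3 by -1.68 ± 0.72 (adjusted p = 0.55, -3.28 to -0.07). Without Tac1 plate 1 the Tbx3 difference was -7.49, against a Tac1 plate whose untreated sum is at 0, and without Gcg plate 1 it was -1.07. For the Gip plate against Tac1 plates, an arm of 1 plate, edgeR called 0 of 8308 (0%), with 500 at an unadjusted p under 0.05, and DESeq2 called 4. Nt5e was at -1.25 ± 0.71 (adjusted p = 0.89), Klf4 at -1.64 ± 1.46 (0.94) and Tbx3 at -0.73 ± 0.94 (0.95), or -6.53 without Tac1 plate 1. None of these differences passed, which does not show that the lines respond alike.

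The early response of Nt5e was compared between lines in the same fit after its values had been seen, so it is given as a description. At 24 h it was larger on the Gcg plates than on the Tac1 plates by 2.80 ± 0.65 (log2, SE of the fit). Both Gcg plates lay above Tac1 plate 1, which alone gives the Tac1 value. Over its alternatives the difference ran from 2.39 to 3.28, and it did not pass in the main fit or in any of them. Tbx3 differed by -0.02 ± 0.54 in the same fit and Klf4 by 1.42 ± 1.45. At 24 h 0 of 8308 genes (0%) passed, with 148 at an unadjusted p under 0.05.

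Levels were also compared between lines within 1 condition, where line and kind of deposited file coincide. Without BMP4 none of the 3 tested members passed for Gcg against Tac1 plates, where 16.4% of 9168 genes did. Nt5e was at -1.52 ± 0.66 (edgeR adjusted p = 0.12), Klf4 at 1.03 ± 0.61 (0.29) and Tbx3 at 0.93 ± 0.71 (0.43). Without Gcg plate 2 Klf4 passed at 1.69 (edgeR adjusted p = 0.045), and without Gcg plate 1 it was at -0.24 (0.93). For the Gip plate against Tac1 plates, where 6.81% of genes passed, the members were at -0.87 ± 0.79, -0.77 ± 0.85 and -0.34 ± 0.95 (edgeR adjusted p = 0.61, 0.70 and 0.91).

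At 4 days the comparison of Gcg with Tac1 plates included the 2 Tac1 plates of that condition alone. There Nt5e had 367 and 619.5 CPM, above each of the other plates at 4 days, Klf4 346 and 316 CPM and Tbx3 336 and 397 CPM. None of the 3 members passed, where 11.9% of 5926 genes did: Nt5e was at -0.84 ± 0.49 (edgeR adjusted p = 0.31, 95% interval -1.86 to 0.18), Klf4 at 0.22 ± 0.39 (0.79) and Tbx3 at -0.37 ± 0.38 (0.61). The 4 day Gcg and Tac1 levels overlapped for each of the 3 genes.

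Among the Tac1 plates of 1 condition, the 2 labelled 4 days were set against the 1 labelled 24 h. The members were chosen over all 8 plates, these 3 included, so the contrast is given as a description. The plate labelled 24 h had 4 transcripts of Nt5e (20.8 CPM), 2 of Klf4 (10.4 CPM) and 0 of Tbx3 among 192705. In the fit Nt5e was higher at 4 days by 4.39 ± 0.85 and Klf4 by 4.75 ± 0.99 on the log2 scale, both on 2 of 2 plates. Tbx3 was at least 21.6-fold and at least 25.5-fold higher on the 2 plates labelled 4 days against a floor of 3 counts. All 3 tested members passed an adjusted p of 0.05 as higher, where 1.37% of 4365 genes did, which adds nothing to how they were chosen. This fit has 1 residual degree of freedom, and its 24 h plate is the one with Id1 in 1 cell and no Id3. Enterocyte markers summed to 4843.75 and 5439.8 CPM on the plates labelled 4 days and to 2511.35 CPM on the plate labelled 24 h; their part in the result was not tested. On Tac1 plate 1, where 24 h and 4 days lie side by side, the ratios were 4.99 for Nt5e, 14.4 for Klf4 and 3.89 for Tbx3.

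Deeper cells show more genes, so shares of cells were compared after each cell had been thinned to 2000 transcripts. At 4 days Tbx3 was found in 35.1% of cells on average against 4.72% without BMP4, which is 30.4 ± 4.84 points more (SD over n = 5 plates) and higher on 5 of 5. Klf4 was found in 21.5% against 7.17%, a difference of 14.3 ± 8.53 points, and Nt5e in 17.04% against 3.84%, a difference of 13.2 ± 5.57 points, each on 5 of 5 plates. At 4000 transcripts per cell Nt5e was higher on 4 of 5, with 6.85% at 4 days against 9.30% without BMP4 on the Gip plate. At 24 h Tbx3 was found in 21.02% against 5.90% of cells (4 of 4 plates higher), Nt5e in 11.6% against 4.80% (3 of 4) and Klf4 in 8.93% against 8.96% (2 of 4). Without thinning the 4 day shares were 60.5% against 14.9% for Tbx3, 34.8% against 15.4% for Klf4 and 33.1% against 10.99% for Nt5e. Ada, thinned to 2000, was found in 0.150% of cells at 4 days and 0.317% without BMP4. At 4000 transcripts per cell its shares were 1.31% and 0%.

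**Figure D3:**
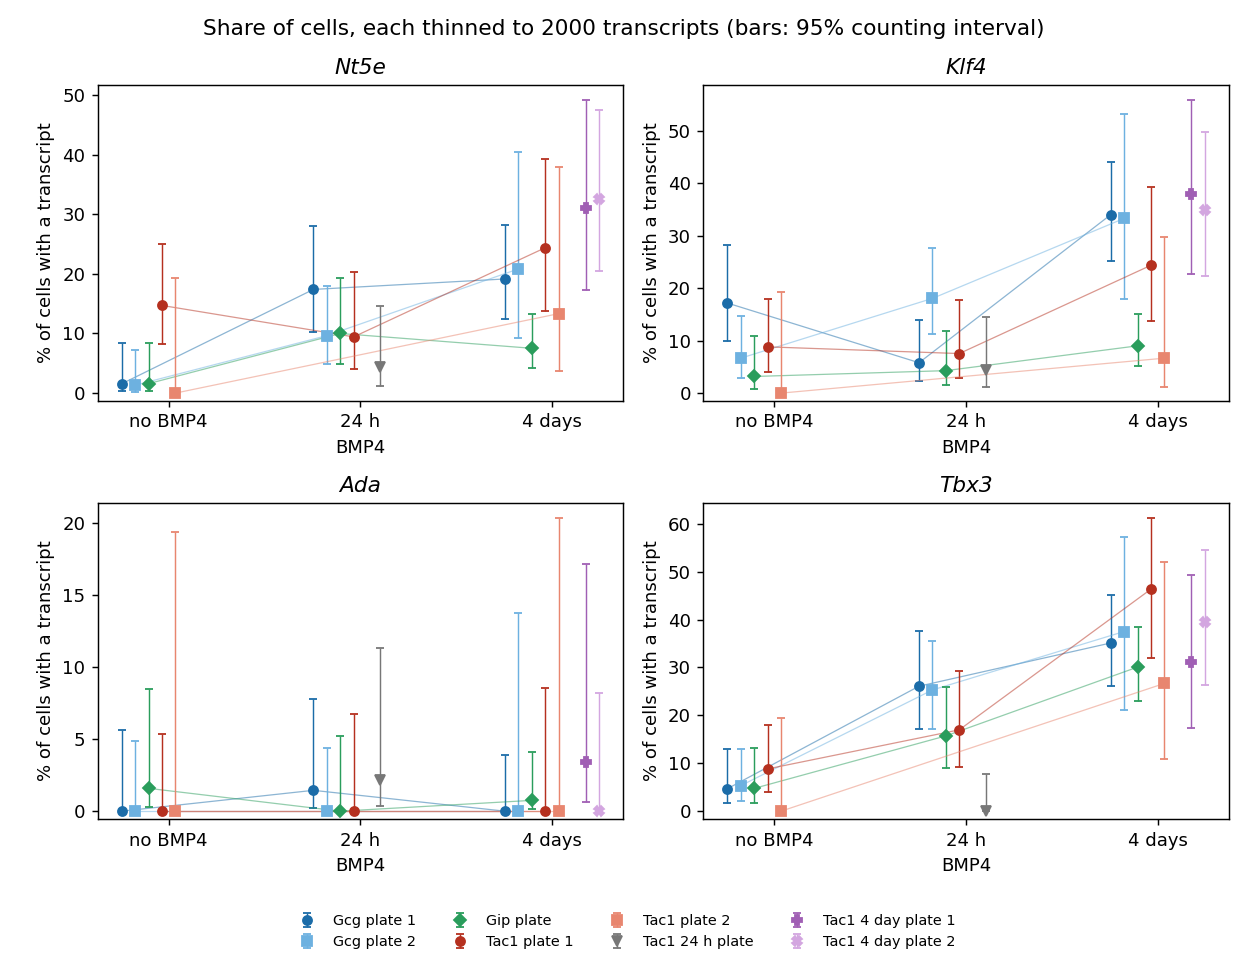
Share of cells with at least 1 transcript of Nt5e, Klf4, Ada and Tbx3 after each cell was thinned to 2000 transcripts (vertical axes, percent) without BMP4, at 24 h and at 4 days (horizontal axes). Each point is 1 plate and bars are 95% Wilson intervals. Tbx3 averages 35.1% of cells at 4 days and Nt5e and Klf4 stay at 17.04% and 21.5%.

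The members were spread differently over cells with markers of other types. On Gcg plate 1 cells were divided by their content of goblet or enterocyte markers at 5% of transcripts, a limit set after the data had been seen; over all plates 142 cells lay between 2.5% and 10%. Klf4 was at 862 CPM in the 9 goblet-rich cells at 4 days, at 402 CPM in the 14 enterocyte-rich cells and at 174 CPM in the 72 cells of neither class. Without BMP4 it was at 1195 CPM in the 4 goblet-rich cells, which held 57.4% of the Klf4 transcripts and 5.81% of all transcripts of that sum, and at 49.8 CPM in the 56 cells of neither class. In cells of neither class at 24 h it was at 40.2 CPM. So most of the untreated Klf4 on that plate lay in 4 cells, and of their 59 transcripts 40 lay in 1 cell. In the cells of neither class on Gcg plate 1 the 24 h and untreated levels had overlapping intervals. Gcg plate 2 differed: its cells of neither class held Klf4 at 28.9 CPM without BMP4 (95% Poisson interval 17.4 to 45.1). At 24 h they held it at 109 CPM (90.9 to 129).

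Nt5e was distributed the other way. At 4 days on Gcg plate 1 it was at 213 CPM in cells of neither class, at 12.9 CPM in enterocyte-rich cells and at 6.76 CPM, from 1 transcript, in goblet-rich cells, and cells of neither class held 97.1% of its transcripts. Tbx3 was found in each class at 4 days, at 271 CPM in cells of neither class, 222 CPM in enterocyte-rich cells and 115 CPM in goblet-rich ones. In cells of neither class the 4 day level against no BMP4 was 213 against 13.3 CPM for Nt5e, 174 against 49.8 CPM for Klf4 and 271 against 34.8 CPM for Tbx3.

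**Figure D4:**
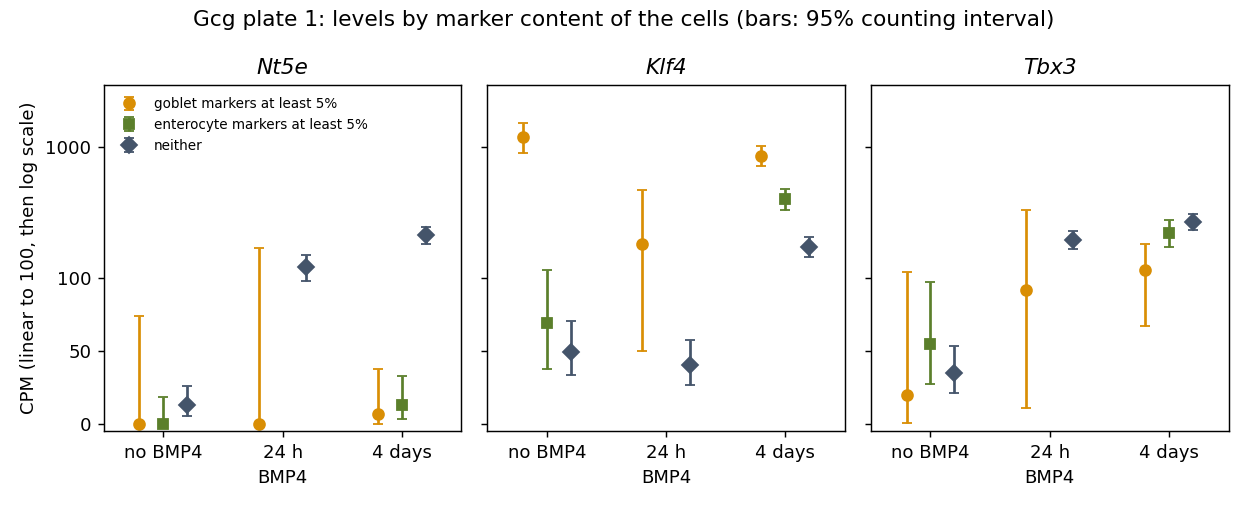
Levels of Nt5e, Klf4 and Tbx3 on Gcg plate 1 (vertical axis, CPM, linear to 100 and logarithmic above) by BMP4 condition (horizontal axis) in cells with at least 5% goblet markers, at least 5% enterocyte markers, or neither; bars are 95% Poisson intervals. Klf4 is highest in goblet-rich cells without BMP4 (1195 CPM) and at 4 days (862 CPM), while Nt5e is highest in cells of neither class (213 CPM at 4 days). No enterocyte-rich cell was kept at 24 h.

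Within the endocrine cells of the Gcg plates, Nt5e was set out by the leading hormone, Nts, which encodes neurotensin, or Gcg; cells led by other hormones are not compared here. Cells of neither class with at least 6 of 12 enteroendocrine markers were divided by their most abundant hormone, with at least 5 transcripts of it, a division also made after the data had been seen. At 24 h Nt5e was at 381 CPM in 13 cells led by Nts and at 48.04 CPM in 12 cells led by Gcg on plate 1, and at 479 CPM in 12 cells against 7.43 CPM in 23 cells on plate 2. Tbx3 was at 223 against 160 CPM on plate 1, with overlapping intervals, and at 421 against 69.4 CPM on plate 2. Klf4 gave 27.9 against 42.7 CPM and 80.6 against 89.4 CPM, with overlapping intervals on each plate.

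The hormone that led these cells changed with time as well. Among them, 9 cells on plate 1 and 7 on plate 2 were led by Nts without BMP4, 13 and 12 at 24 h, and 39 and 11 at 4 days. Cells led by Gcg numbered 26 and 45 without BMP4, 12 and 23 at 24 h, and 0 and 1 at 4 days. These counts depend on the limits on markers. Over all kept cells, those led by Gcg numbered 37, 17 and 28 in that order on plate 1 and 56, 36 and 5 on plate 2. Within the cells led by Nts, Nt5e was at 40.1 CPM without BMP4, 381 CPM at 24 h and 382 CPM at 4 days on plate 1, and at 37.2, 479 and 299 CPM on plate 2. The untreated values rest on 4 and 2 transcripts, in 2 cells each. Their 95% Poisson intervals are 10.9 to 103 and 4.51 to 134.5 CPM, against 323 to 447 and 189.5 to 449 CPM at 4 days. These intervals cover counting error and not the spread between cells, so their separation is not a test. In cells led by Gcg, Nt5e was at 7.01 and 12.3 CPM without BMP4 and at 48.04 and 7.43 CPM at 24 h. Nt5e, Klf4 and Tbx3 played no part in these divisions, but Nts and Gcg counts share the cells' depth with them.

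**Figure D5:**
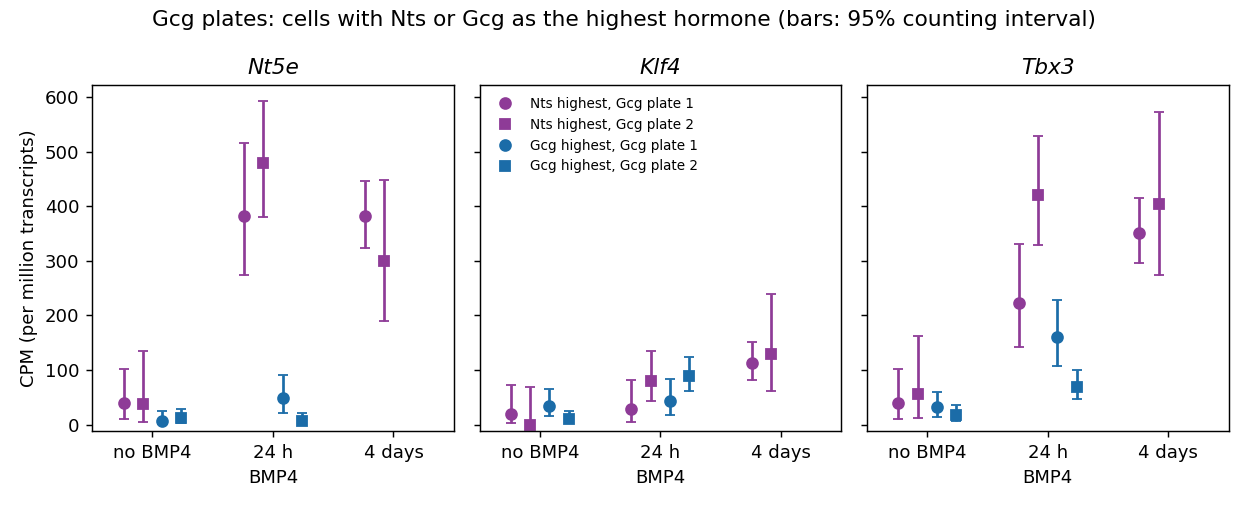
Levels of Nt5e, Klf4 and Tbx3 (vertical axis, CPM) by BMP4 condition (horizontal axis) in endocrine cells of the Gcg plates whose most abundant hormone is Nts or Gcg; bars are 95% Poisson intervals, and classes with fewer than 5 cells are not drawn. At 24 h Nt5e is at 381 and 479 CPM in cells led by Nts and at 48.04 and 7.43 CPM in cells led by Gcg.

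Pairs of members in single cells were counted at 2000 transcripts per cell. On the Gcg plates at 4 days, Tbx3 was found in 15 of the 23 cells with Nt5e (65.2%) and in 28.4% of the cells without it. On the Tac1 plates at 4 days Tbx3 was found in 42.9% of 35 cells with Nt5e and in 36.6% of those without. For Nt5e and Klf4 the order differed by line at 4 days: Klf4 was found in 21.7% of Gcg plate cells with Nt5e against 36.8% without, and in 37.1% against 25.8% of Tac1 plate cells. Of 20 Gcg plate cells with Nt5e at 24 h, 0 held Klf4. Cells of 1 plate are not replicates, so these shares have no test.

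Of 36 listed genes of adenosine and purine handling 23 were tested, and of the 22 other than Nt5e none passed at 24 h or at 4 days, where 0.0963% and 3.33% of all genes did, so a count of 0 is near the background. The median log2 change over the 23 was 0.01 at 4 days, against -0.0032 over all 8308 genes. Entpd5, a nucleoside diphosphatase, was at -0.47 ± 0.34, Dpp4, the peptidase that binds adenosine deaminase in humans, at -0.57 ± 0.39, and the adenosine transporter Slc29a1 at 0.07 ± 0.18. Gda, guanine deaminase, had 2.38 ± 0.79 (edgeR adjusted p = 0.15), Hprt, of purine salvage, -0.48 ± 0.21 (0.31) and the nucleotidase Nt5c -0.37 ± 0.19 (0.41).

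Among the Klf factors 10 of 17 listed were tested, and of the 9 other than Klf4 none passed at 24 h or 4 days, which with so few genes is also near the background of 0.0963% and 3.33%. Klf5, a factor of proliferating crypt epithelium, was at 0.72 ± 0.20 at 4 days (edgeR adjusted p = 0.075) and Klf10, a gene induced by TGF-beta, at -0.69 ± 0.20 (0.084). Klf6 was at 0.04 ± 0.29, Klf13 at -0.18 ± 0.26, Klf2 at -0.25 ± 0.32 and Klf3 at 1.05 ± 0.48 (adjusted p = 0.31). The median over the 10 was -0.02 at 4 days. Of 17 T-box genes 2 were tested, and the other one, Mga, was at 0.07 ± 0.21 at 4 days. The 4 other tested villus tip genes did not pass either: Egfr, the receptor of epidermal growth factor, was at 1.01 ± 0.42 (edgeR adjusted p = 0.26), Creb3l3, a factor of lipid handling, at 0.49 ± 0.74, and the immediate early genes Fos and Junb at 0.14 ± 0.27 and -0.10 ± 0.19.

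Between the lines without BMP4, by contrast, several of these relatives differed. For Gcg against Tac1 plates, where 16.4% of all genes passed, 6 of 24 tested purine genes did so as higher and 3 as lower: Gda (5.71 ± 0.92), Pnp2 (4.59 ± 0.98), Aprt (2.01 ± 0.51), Adk, adenosine kinase (2.42 ± 0.77), Panx1 and Xdh were higher, while Entpd3 (-3.37 ± 0.46), the adenosine receptor gene Adora2a (-4.79 ± 0.85) and Entpd5 (-1.02 ± 0.35) were lower. Pnp2 has a close copy in Pnp, so its reads may be shared. Of 12 Klf genes, Klf3 (2.67 ± 0.78), Klf10 (1.33 ± 0.40) and Klf5 (1.26 ± 0.35) were higher and Klf2 (-2.51 ± 0.44) and Klf13 (-1.43 ± 0.38) lower. Creb3l3 passed as higher and Fos as lower (-1.94 ± 0.41). Of the 18 tested enterocyte markers 17 were also higher on the Gcg plates; their part in these differences was not tested.

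For the Gip plate against Tac1 plates 2 of 24 purine genes passed, near the 6.81% of all genes, with none higher and Adora2a (-4.84 ± 1.20) and Nt5c (-1.65 ± 0.46) as lower. Among 12 Klf genes the comparison gave Klf3 (3.11 ± 0.84), Klf7 (2.72 ± 0.81) and Klf10 (2.14 ± 0.46) as higher and Klf2 (-2.08 ± 0.56) as lower. Creb3l3 was higher there and Egfr lower (-4.83 ± 1.01). The Gip arm is 1 plate, which the fit assumes to vary as the other groups do. At 4 days 11.9% of all genes passed for Gcg against Tac1 plates. Of the lists, 2 of 16 tested purine genes, 1 of 9 Klf genes and 1 of 3 T-box genes did so. The purine and Klf counts are near the share over all genes. That comparison gave Gda (3.10 ± 0.83) and Dpp4 (1.65 ± 0.50) as higher, and Klf11 (-3.48 ± 0.86) and the T-box gene Tbx18 (-4.99 ± 0.98) as lower. The contrast of the Tac1 plates of 1 condition rests on the plate labelled 24 h, with Id1 in 1 of 48 cells and no Id3. In it Entpd5 was lower on the plates labelled 4 days (-2.33 ± 0.67). Each of these passed an adjusted p of 0.05 by edgeR, and 14 of 17 tested enterocyte markers were higher in the 4 day comparison.

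Over the 14 sums, with each gene centred on its plate, the genes most like Nt5e included Pcsk1n (r = 0.95), which encodes the granule protein proSAAS, Nfkbia (0.94), an inhibitor of NF-kappaB, the somatostatin receptor gene Sstr1 (0.94) and Nudt14 (0.92). Those most like Klf4 were the actin-binding thymosin genes Tmsb4x (0.96) and Tmsb10 (0.94), with Stx3 (0.95), Myh14 (0.92) and Klc4 (0.91). Tbx3 was most like Hivep2 (0.97), the BMP targets Id1 (0.97) and Id2 (0.94), Epb4.1l1 (0.95) and Raph1 (0.94). Among the members r was 0.85 for Nt5e and Tbx3, 0.71 for Klf4 and Tbx3 and 0.64 for Nt5e and Klf4. The sums share plates and conditions, and the best of 5429 genes were taken, so these values describe the libraries.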

How the data were processed

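Single cells were processed by SORT-seq, a CEL-seq2 method on 384-well plates, per the labels' protocols. The submitters' processing notes name BWA (0.6.2-r126) and the mm10 build. Neither the counter nor the annotation nor the strand setting is stated in the sources at hand. The deposited values are expected counts, which by their values are transcript numbers corrected for saturation of the molecular identifiers. Undoing the correction with 4096 identifiers gave whole numbers, within 0.01, for 100% of values. Files of the Tac1 line are rounded to 2 decimals and those of the other lines are not. The deposited list of wells and the column blocks matched in 1920 of 1920 wells.

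Cells with at least 2000 transcripts (spike-ins and mitochondrial genes left out) were kept, and doublets were not called. Genes listed in both kinds of file (16115) were summed per plate and condition and rounded to whole numbers. Tests were edgeR 4.0.16 quasi-likelihood F tests (filterByExpr, TMM, Benjamini-Hochberg over all genes tested), checked on simulated counts. Plate was a block where conditions lie side by side. Same-plate sums deviated together from the condition means in 13 of 13 pairs (correlation 0.36 to 0.73). Sums of 1 plate also share their line, so these correlations do not separate plate from line. Alternatives covered depth and cell limits, filtering, scaling, DESeq2 1.42.0, marker content, thinning and leaving out plates. Named genes are the 4 members, every tested member of the villus tip, purine, Klf and T-box lists that passed, up to 6 others per list by mean level, and the 5 genes most like each member, of which 1 is not reported here. The members and lists were chosen with earlier results of these data known. No column of another series was used, and all plates use the same 384 well numbers.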

Additional observations from a re-analysis of the deposited data

Results flagged for a closer look

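Ada on Gcg plate 1 stood apart at 4 days: it was found in 8.42% of cells, against 0% to 3.33% on the other 6 plates with 4 day cells. Its 4 day cells were the deepest, with a median of 9898 transcripts against 2802 to 5587 on the others. Thinned to 2000 transcripts, 0 of 94 of them held Ada. Thinned to 4000, 4 of 77 of them did (5.19%), against 0% to 1.37% on the others, so the order depends on the depth chosen. In all, 24 sets of plates were examined in this way and 1 stood out; chance alone marks about 1 set in 20. The level there was 12.0 CPM, and 11 of its 15 transcripts lay in enterocyte-rich cells.

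Wells under 1000 transcripts enter no comparison, yet on the Tac1 plates labelled 4 days they held Tbx3 at 594 CPM (276 wells, 62 transcripts) and 499.6 CPM (268 wells, 41 transcripts). Wells of that depth at 4 days on Tac1 plates 1 and 2 held 154 CPM (4 transcripts, 95% Poisson upper limit 395 CPM) and 0 (upper limit 311 CPM). The 88 untreated wells of that depth on Tac1 plates 1 and 2 held 0 of 18643 transcripts, which allows up to 198 CPM at the upper 95% Poisson limit. Wells of that depth on the plate labelled 24 h held 0 of 53909.8.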

How the results depend on the processing

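Counts of called genes moved more than the members' values. The 4 day count of 277 genes was 653 with no filter on low counts, 150 with at least 4000 transcripts per cell, 13 with no replicate block, 424 in cells under 5% other markers and 64 without the cells highest in nuclear RNA (the last 2 chosen after seeing the data), and 90 to 345 leaving out 1 plate (90 without Tac1 plate 1, 123 without the Gip plate). The 24 h count of 8 was 46 with no filter, 18 by DESeq2 and 4 with no replicate block. Without BMP4, Gcg against Tac1 gave 1503 genes, against 672 by DESeq2, 692 in cells under 1% other markers, 1385 with a replicate block and 797 to 1478 leaving out 1 plate (797 without Gcg plate 1, 927 without Tac1 plate 1); Gip against Tac1 gave 624, against 240 by DESeq2. At 4 days Gcg against Tac1 gave 707, against 230 and 461 in cells under 1% and 5% other markers, 688 with a replicate block and 162 to 713 leaving out 1 plate (162 without Gcg plate 1, 403 without Tac1 plate 1). The single-condition Tac1 count of 87 was 215 with at least 1000 transcripts, 56 with no filter and 31 by DESeq2.

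The 4 day response difference of Gcg and Tac1, 0 genes, became 113 with no filter, 22 by DESeq2, 61 and 15 in cells under 1% and 5% other markers and 0 to 60 leaving out 1 plate (60 without Gcg plate 1). For Gip and Tac1, also 0, it became 48, 4 by DESeq2, 13 under 1% and 0 to 67 (67 without Gcg plate 1). At 24 h it became 7 with no filter, 2 under 1% and 0 to 6 leaving out 1 plate. Share differences were larger than at 2000 transcripts: at 4000, 23.9 points for Nt5e, 24.6 for Klf4 and 46.5 for Tbx3, and unthinned 22.1, 19.5 and 45.6.

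Directions turned in differences between lines that had not passed, and in the 24 h change of Klf4 (0.52 under 1%, 0.49 under 5%, -1.48 to 0.39 leaving out 1 plate). Tbx3 in the 24 h response difference was 0.43 (1000 transcripts), 0.052 (no filter), 0.13 (under 1%), 0.27 (under 5%) and -0.34 to 0.50 leaving out 1 plate. Klf4 at 4 days, Gcg against Tac1, was -0.50 (under 1%), -0.45 (under 5%) and -0.015 to 0.41; untreated, -0.80 (under 5%) and -0.24 to 8.43; in the 4 day response, 0.23 (under 5%) and -7.73 to 0.23; in the 24 h response, -0.17 to 3.15. Untreated Gip against Tac1 ran from -1.18 to 0.17 for Nt5e, -1.25 to 6.64 for Klf4 and -0.77 to 5.87 for Tbx3, where the remaining Tac1 sum is 0 for Klf4 and Tbx3 without Tac1 plate 1. The causes were not tested. Some fits that leave out a plate were not run, as an arm is then empty or no residual degrees of freedom remain. They concern the Gip plate in its own comparisons, Tac1 plate 1 in the 24 h response and the Tac1 plates in the single-condition contrast. Depth limits Ada, and Klf4 and Tbx3 in untreated cells of Tac1 plate 2.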
